A study of Rattus norvegicus with 12 samples.

Results

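The 6 transcripts used as a readout of the dentate gyrus and of neurogenesis in it, those of Prox1, Calb1, Neurod1, Nes, Sox2 and Mki67, were followed through RNA sequencing of rat hippocampus. They were picked by name, by a rule that uses no measured value but was set with earlier results of these data known, and make up 6 of the 28959 rows of the deposited table, where they stand under the rat Ensembl IDs ENSRNOG00000003694 (Prox1), ENSRNOG00000007456 (Calb1), ENSRNOG00000005609 (Neurod1), ENSRNOG00000018681 (Nes), ENSRNOG00000012199 (Sox2) and ENSRNOG00000028137 (Mki67). All rats were Sprague Dawley with a stated age of 6 to 7 weeks, and they formed 4 groups of 3 libraries. Ctrl-Sal rats were unstressed and received saline. CUMS-Sal rats received saline and were exposed to CUMS (chronic unpredictable mild stress), a schedule of changing mild stressors used as a rodent model of depression, for 5 weeks. CUMS-Flx rats had the same stress with fluoxetine, an antidepressant that blocks serotonin reuptake, and CUMS-Alb rats had it with albiflorin, a monoterpene glycoside of peony root, each over the last 7 days. The albiflorin dose was 7 mg/kg/d, and the fluoxetine dose is stated both as 10 mg/kg/d, for the single samples, and as 7 mg/kg/d, for the whole series. Whether each library stands for its own animal is not stated, so p-values here reflect variation among libraries that could be purely technical.

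The dentate gyrus is a hippocampal region in which neural stem cells persist in the adult and give rise to new granule neurons. Radial glia-like stem cells express the transcription factor Sox2 and the intermediate filament protein nestin (Nes), dividing cells carry the nuclear protein Ki-67 (Mki67), and Neurod1 drives the differentiation of young granule neurons. Prox1 is a homeobox factor that marks the granule lineage, and Calb1 encodes the calcium-binding protein calbindin of mature granule neurons. Chronic stress is known to reduce adult hippocampal neurogenesis in rodents, and prolonged fluoxetine treatment is known to raise it. None of the 6 transcripts is exclusive to this lineage: Sox2 is also made by astrocytes, Nes by vascular cells, Mki67 by any dividing cell and Calb1 by interneurons and some pyramidal cells. In tissue RNA of this kind, fewer cells of a type and less RNA per cell cannot be told apart.

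Values are FPKM, reads scaled to gene length and to the reads of the library, and each library held 14735953 to 18109623 reads assigned to genes. Ctrl-Sal replicate 2 stood apart from the other 11 libraries. On principal component 1, which held 36.0% of the variance, it lay at -44.7 against -12.2 to 15.1 for the rest, and its median correlation with the other libraries was 0.977 against 0.989 to 0.992. Results that rest on it are given with and without it. Besides the 6 genes, rows could not be matched to gene names, so markers of other cell types and other genes of the lineage were not analysed here. The tissue is therefore given as labelled and was not checked on other markers.

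Per unit of gene length, Calb1, Prox1, Neurod1 and Sox2 were abundant and Mki67 and Nes were scarce. Calb1 was the highest in 12 of 12 libraries, at 55.3 ± 4.60 FPKM (SD, n = 12). Prox1 at 23.9 ± 1.74, Neurod1 at 22.3 ± 1.91 and Sox2 at 19.4 ± 2.73 FPKM followed. These neighbours were not fully separated: Prox1 exceeded Neurod1 in 9 of 12 libraries and Sox2 in 11, and Neurod1 exceeded Sox2 in 10. Mki67, at 0.651 ± 0.0771 FPKM, and Nes, at 0.360 ± 0.0774, lay below them in every library, and Mki67 was above Nes in all 12. By mean level Calb1 exceeded 90.3% of the 15253 rows tested and Mki67 4.05%. The gene length behind the FPKM was recovered as 2323 bp for Sox2, an intronless gene whose RefSeq span is 2412 bp. For the others it was 7235 bp for Prox1, 1705 bp for Calb1, 2623 bp for Neurod1, 5296 bp for Nes and 9880 bp for Mki67.

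**Figure D1:**
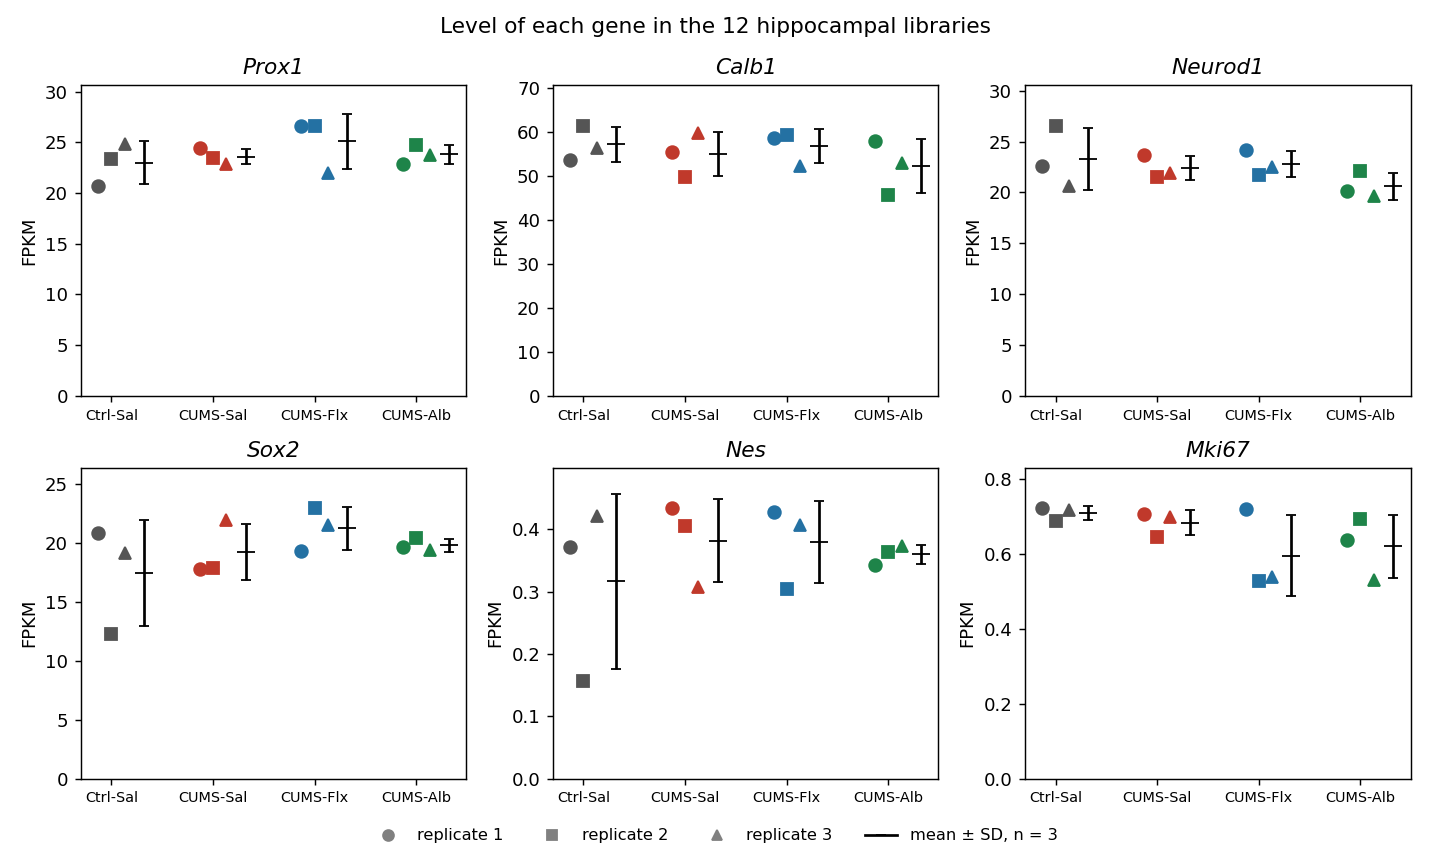
FPKM of the 6 genes (vertical axes from 0) in the 4 groups of 3 libraries, with the mean and SD of each group beside its points. The groups overlap in every panel, and Ctrl-Sal replicate 2 (grey square) lies lowest for Sox2, at 12.3 FPKM, and for Nes, at 0.157 FPKM.

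Prox1 held nearly the same level in all groups. It stood at 20.7, 23.4 and 24.9 FPKM in Ctrl-Sal replicates 1, 2 and 3, at 24.4, 23.5 and 22.9 in CUMS-Sal, at 26.6, 26.7 and 22.0 in CUMS-Flx and at 22.9, 24.8 and 23.7 in CUMS-Alb. The highest and the second highest value were both from CUMS-Flx, whose replicate 3 was the second lowest of the 12, so the groups overlapped. The highest library was 1.29 times the lowest. Behind these values stood 2208 to 3312 reads per library.

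Calb1 varied by a similar factor, 1.34 between the lowest and the highest library. Its values were 53.7, 61.5 and 56.4 FPKM in Ctrl-Sal, 55.6, 49.8 and 59.8 in CUMS-Sal, 58.7, 59.4 and 52.3 in CUMS-Flx and 58.0, 45.8 and 53.0 in CUMS-Alb. The lowest value was CUMS-Alb replicate 2 and the highest Ctrl-Sal replicate 2, and the other libraries of both groups lay between them. Within groups the SD on the log2(FPKM + 0.5) scale was 0.13 for Calb1 and 0.11 for Prox1, close to the median of 0.14 over all tested rows.

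Neurod1 was lowest in CUMS-Alb without being separated from the other groups. It stood at 22.6, 26.6 and 20.6 FPKM in Ctrl-Sal, 23.7, 21.5 and 21.9 in CUMS-Sal, 24.2, 21.7 and 22.5 in CUMS-Flx and 20.1, 22.1 and 19.6 in CUMS-Alb. CUMS-Alb replicates 1 and 3 were the lowest libraries, while its replicate 2 lay above 2 CUMS-Sal libraries and 1 CUMS-Flx library. Neurod1 protein is a basic helix-loop-helix factor that binds E-boxes, of the letters CANNTG. The 250 bases before the RefSeq start of its own gene are printed here to show the promoter of the gene with the lowest unadjusted p of the granule genes, from build GRCr8, which is not the build of the reads, with the E-box match in capitals.

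Neurod1, chr3:84770455-84770704, minus strand: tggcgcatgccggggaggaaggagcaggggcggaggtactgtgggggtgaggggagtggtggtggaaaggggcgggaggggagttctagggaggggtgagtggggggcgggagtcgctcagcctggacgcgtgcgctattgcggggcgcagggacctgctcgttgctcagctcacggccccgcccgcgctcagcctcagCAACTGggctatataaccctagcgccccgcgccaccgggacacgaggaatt

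The E-box begins 51 bases before the start. Of 33469 rat promoter windows of this length, 65.5% hold CANNTG on either strand, so a match is the usual case.

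On the log2(FPKM + 0.5) scale, which compresses low genes such as Nes, Sox2 had the largest within-group spread of the 6 genes. Its values were 20.8, 12.3 and 19.1 FPKM in Ctrl-Sal, 17.8, 17.9 and 22.0 in CUMS-Sal, 19.3, 22.9 and 21.5 in CUMS-Flx and 19.6, 20.4 and 19.3 in CUMS-Alb. Ctrl-Sal replicate 2 was far below the other 11 libraries, the lowest of which was at 17.8 FPKM. Its within-group SD of 0.22 log2 units was exceeded by 20.0% of tested rows. The spread of the reads over the 12 libraries was 14.1 times the variance of counting, and 5.02 times without that library. This measure was 14.9 for Prox1 and 10.7 for Calb1, and 16.3 and 9.85 without that library. At a given relative spread it rises with the number of reads, so it does not rank these genes. The reads numbered 8793 for Sox2, 33674 for Prox1 and 18351 for Calb1. In FPKM, the SD over the 12 libraries was 14.1% of the mean for Sox2, 7.30% for Prox1, 8.31% for Calb1 and 21.5% for Nes. The mean of Sox2 was 17.4 ± 4.50 FPKM (SD, n = 3) in Ctrl-Sal and 19.9 without replicate 2. It was 19.2 ± 2.40 in CUMS-Sal, 21.2 ± 1.82 in CUMS-Flx and 19.8 ± 0.531 in CUMS-Alb.

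Nes was near the lower limit of what these libraries could measure. It stood at 0.372, 0.157 and 0.421 FPKM in Ctrl-Sal, 0.434, 0.405 and 0.307 in CUMS-Sal, 0.428, 0.305 and 0.407 in CUMS-Flx and 0.343, 0.364 and 0.373 in CUMS-Alb. As for Sox2, Ctrl-Sal replicate 2 was the lowest library, and the remaining libraries of the 4 groups overlapped. These values rest on 13 to 39 reads. The 13 reads of Ctrl-Sal replicate 2 have an exact 95% Poisson interval of 6.92 to 22.2 reads, and the 25 reads of CUMS-Sal replicate 3 one of 16.2 to 36.9, both covering counting error only. Over the 12 libraries the reads of Nes varied 1.40 times as much as counting alone, and 0.477 times without Ctrl-Sal replicate 2. Differences between the other libraries were therefore not detectable at this depth.

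Mki67 was even in the saline groups and uneven in the drug groups. It stood at 0.721, 0.686 and 0.715 FPKM in Ctrl-Sal, with 0.705, 0.645 and 0.697 for CUMS-Sal. The CUMS-Flx libraries were at 0.718, 0.526 and 0.537 and the CUMS-Alb libraries at 0.637, 0.692 and 0.529. The lowest 3 libraries were thus CUMS-Flx replicates 2 and 3 and CUMS-Alb replicate 3, while CUMS-Flx replicate 1 was among the highest. With 87 to 122 reads per library, the variance was 1.52 times that of counting. The 87 reads of CUMS-Flx replicate 2 have an exact 95% Poisson interval of 69.7 to 107 reads and the 105 reads of Ctrl-Sal replicate 1 one of 85.9 to 127. These intervals overlap, as the plot of reads with their counting intervals shows. The reads are not scaled to depth, which was 16725258 reads in CUMS-Flx replicate 2 and 14735953 in Ctrl-Sal replicate 1.

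**Figure D2:**
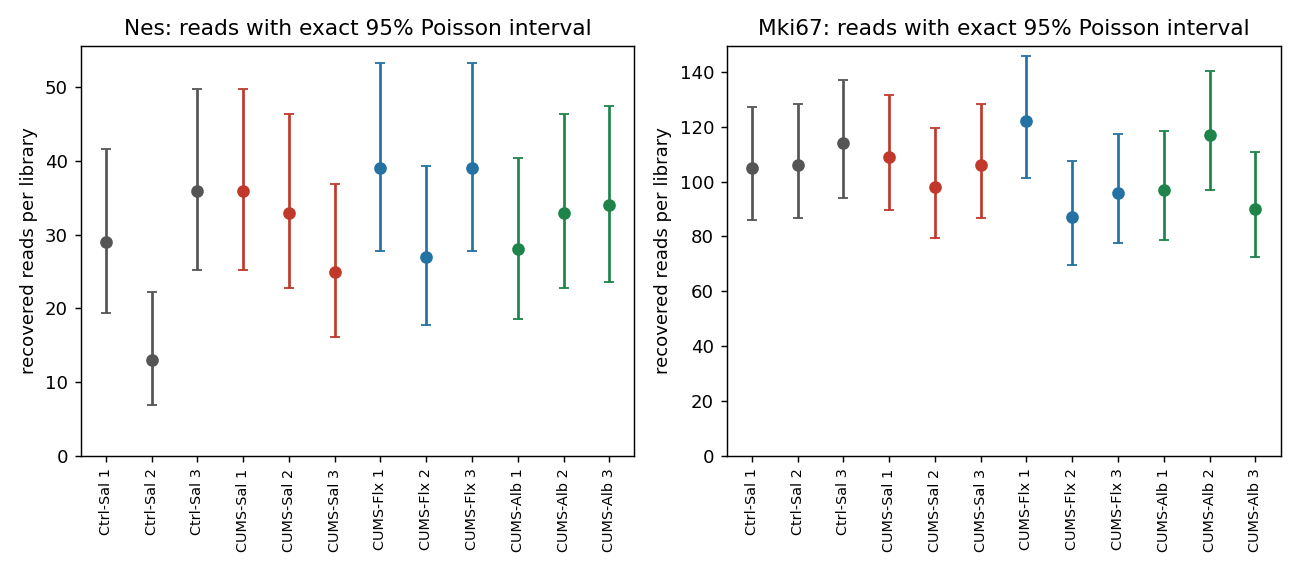
Reads recovered for Nes and Mki67 (vertical axes from 0) in each of the 12 libraries, with exact 95% Poisson intervals that cover counting error only. Nes has 13 to 39 reads and Mki67 87 to 122, and most intervals overlap within each gene. The reads are not scaled to the depth of the library.

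Promoters of genes expressed in late cell cycle phases are known for CCAAT boxes, bound by NF-Y, and for the cell cycle genes homology region, of the letters TTTGAA. The window of Mki67 is shown beside that of Sox2 to set the promoter of a cell cycle gene against that of a stem cell factor. Both hold the 250 bases before the RefSeq start in build GRCr8, with CCAAT and TTTGAA in Mki67, and CCAAT in Sox2, in capitals on either strand.

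Mki67, chr1:199952594-199952843, minus strand: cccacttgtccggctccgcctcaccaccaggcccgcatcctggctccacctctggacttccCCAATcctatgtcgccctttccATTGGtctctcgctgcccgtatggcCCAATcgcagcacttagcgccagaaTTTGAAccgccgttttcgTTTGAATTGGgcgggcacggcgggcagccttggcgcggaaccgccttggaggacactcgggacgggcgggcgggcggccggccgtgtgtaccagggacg
Sox2, chr2:119464881-119465130, plus strand: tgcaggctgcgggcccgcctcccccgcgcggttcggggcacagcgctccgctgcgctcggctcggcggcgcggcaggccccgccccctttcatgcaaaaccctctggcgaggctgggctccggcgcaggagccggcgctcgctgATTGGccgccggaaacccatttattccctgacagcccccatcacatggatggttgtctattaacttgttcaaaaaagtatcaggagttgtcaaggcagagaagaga

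Mki67 has 4 CCAAT matches and 2 TTTGAA matches, of which the last CCAAT, read on the other strand as ATTGG, shares its first base with the second TTTGAA. Sox2 has 1 CCAAT and 1 TTTGAA, the latter in lower case here. Over all 33469 windows 34.0% hold CCAAT and 16.2% hold TTTGAA. The letters ACAAAG and TATAAA were also searched and were in none of the 4 windows held by RefSeq for these genes, those of Neurod1, Nes, Sox2 and Mki67. The matches describe the sequence and were not tested against the expression values.

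The first comparison asks whether chronic stress changed these genes. None of the 5 genes tested was called different between CUMS-Sal and Ctrl-Sal by limma, at a Benjamini-Hochberg adjusted p under 0.05 over all 15253 rows, and their libraries overlapped for all 6 genes. Over all rows 9.19% were called and 31.1% did not overlap. With 5 genes tested, a count of 0 is near that background. Prox1, the marker of the granule lineage, was at 23.6 ± 0.760 FPKM in CUMS-Sal against 23.0 ± 2.10 in Ctrl-Sal (SD, n = 3; log2 change 0.04, 95% interval -0.15 to 0.23, limma adjusted p = 0.801). This interval on the log2(FPKM + 0.5) scale spans 0.902 to 1.17-fold. For Calb1 the log2 change was -0.06 (-0.26 to 0.15) and for Neurod1 -0.05 (-0.24 to 0.15). A change of Mki67 of -0.03 had an interval of -0.30 to 0.24, and on recovered reads its limma-voom change was -0.05 (-0.37 to 0.26).

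For Sox2, Nes and Neurod1 the sign of the stress change turned without Ctrl-Sal replicate 2, and no change was called with or without it. Neurod1 went from -0.05 to 0.05. Leaving out another single library turned the sign of Prox1 (-0.03 without Ctrl-Sal replicate 1) and of Calb1 (0.01 without CUMS-Sal replicate 2). Sox2 had a log2 change of 0.17 (95% interval -0.17 to 0.50, limma adjusted p = 0.507) with all libraries and of -0.06 without Ctrl-Sal replicate 2. Nes, whose mean of 0.360 FPKM was under the minimum of 0.5 for the main test, was read from limma-voom on recovered reads. Its log2 change was 0.37 (-0.29 to 1.03, limma-voom adjusted p = 0.460) with all libraries and -0.07 without that library. The median change of all rows in this comparison was 0.10. With every library centred on a median deviation of 0, the stress changes were -0.06 for Prox1, -0.16 for Calb1, -0.15 for Neurod1, 0.06 for Sox2 and -0.13 for Mki67, so that Prox1 changed its sign, and again none was called.

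Fluoxetine is known to raise neurogenesis after longer treatment, and CUMS-Flx was therefore compared with CUMS-Sal. None of the 5 genes was called by limma (0% of all rows were, with 1523 rows at an unadjusted p under 0.05), and the groups overlapped for all 6, against 17.9% of rows that did not overlap. Sox2 had a log2 change of 0.15 (95% interval -0.19 to 0.48), Prox1 of 0.08 (-0.11 to 0.27), Calb1 of 0.05 (-0.16 to 0.25) and Neurod1 of 0.03 (-0.17 to 0.22). Mki67 was at 0.594 ± 0.108 FPKM in CUMS-Flx against 0.682 ± 0.0326 in CUMS-Sal (SD, n = 3), with a log2 change of -0.12 (-0.39 to 0.16, limma adjusted p = 0.779). The added 0.5 compresses the change of so low a gene, and on recovered reads it was -0.21 (-0.53 to 0.10, limma-voom adjusted p = 0.640). For Nes the limma-voom change was -0.01 (-0.62 to 0.61).

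Albiflorin was compared with saline in stressed rats in the same way, and again none of the genes was called by limma (0% of all rows were, with 559 rows at an unadjusted p under 0.05) or separated (11.3% of rows did not overlap). Neurod1 was at 20.6 ± 1.29 FPKM in CUMS-Alb against 22.4 ± 1.17 in CUMS-Sal (SD, n = 3; log2 change -0.12, 95% interval -0.31 to 0.08, limma adjusted p = 1). The change was -0.08 for Calb1 (-0.29 to 0.13), 0.01 for Prox1 (-0.17 to 0.20), 0.05 for Sox2 (-0.29 to 0.39) and -0.08 for Mki67 (-0.35 to 0.19). On recovered reads Nes had a difference of -0.07 (-0.69 to 0.55) and Mki67 one of -0.15 (-0.47 to 0.17).

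**Figure D3:**
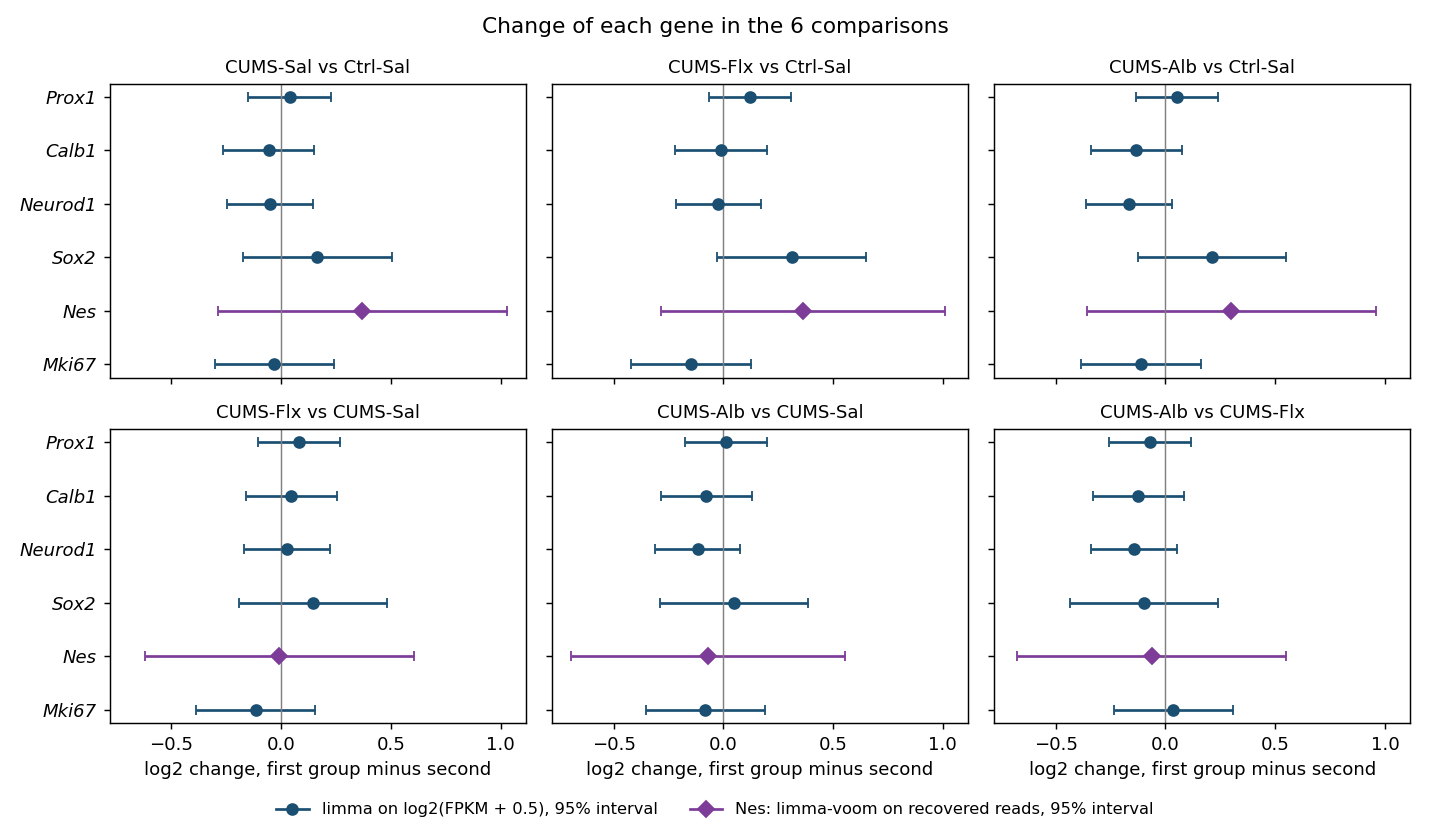
Log2 change of each gene in the 6 comparisons (horizontal axis, first group minus second), with 95% intervals from limma on log2(FPKM + 0.5) and, for Nes, from limma-voom on recovered reads. Every interval includes 0, those of Nes are the widest, and those of Prox1, Calb1 and Neurod1 the narrowest. The added 0.5 narrows the intervals of Mki67. For CUMS-Sal against Ctrl-Sal its interval is -0.30 to 0.24 here and was -0.37 to 0.26 with limma-voom.

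The drugs were also set against each other. Between CUMS-Alb and CUMS-Flx none of the 5 genes was called (0.00656% of all rows) and none of the 6 was separated (13.7%). The largest difference was that of Neurod1, with a log2 change of -0.14 (95% interval -0.34 to 0.05, limma adjusted p = 0.955). Calb1 differed by -0.12 (-0.33 to 0.08), Sox2 by -0.10 (-0.44 to 0.24), Prox1 by -0.07 (-0.26 to 0.12) and Mki67 by 0.03 (-0.24 to 0.31). The limma-voom difference of Nes was -0.06 (-0.67 to 0.55) and that of Mki67 was 0.07 (-0.26 to 0.39). A p above the threshold does not show that the drugs act alike on these genes, and the fluoxetine dose is uncertain as stated above.

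Against unstressed rats, the largest change of the 30 tests of the 5 genes was that of Sox2 in CUMS-Flx. It was at 21.2 ± 1.82 FPKM against 17.4 ± 4.50 in Ctrl-Sal (SD, n = 3; log2 change 0.31, 95% interval -0.03 to 0.65, limma adjusted p = 0.321). The exact, two-sided permutation test of the FPKM gave p = 0.2, and 3 against 3 libraries cannot go below 0.1. The ratio of the means was 1.22 with all libraries and 1.06 without Ctrl-Sal replicate 2. In the same comparison Prox1 had a log2 change of 0.12 (-0.07 to 0.31), Calb1 of -0.01 (-0.22 to 0.20), Neurod1 of -0.02 (-0.22 to 0.17) and Mki67 of -0.15 (-0.42 to 0.12), and the limma-voom change of Nes was 0.36 (-0.28 to 1.01). Without Ctrl-Sal replicate 2 the change of Nes was -0.07, that of Neurod1 0.07 and that of Calb1 0.04. None was called (0.0524% of all rows) or separated (17.7%).

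Between CUMS-Alb and Ctrl-Sal the lowest p was that of Neurod1, short of a call. It was at 20.6 ± 1.29 FPKM in CUMS-Alb against 23.3 ± 3.03 in Ctrl-Sal (SD, n = 3; log2 change -0.17, 95% interval -0.36 to 0.03, limma adjusted p = 0.252). The ratio of the means was 0.885, and 0.953 without Ctrl-Sal replicate 2, the library with the highest Neurod1. Calb1 had a log2 change of -0.13 (-0.34 to 0.07), Sox2 of 0.21 (-0.12 to 0.55), Prox1 of 0.05 (-0.14 to 0.24) and Mki67 of -0.11 (-0.38 to 0.16), and the limma-voom change of Nes was 0.30 (-0.36 to 0.96). On recovered reads Mki67 changed by -0.20 (-0.52 to 0.11, limma-voom adjusted p = 0.411). Without Ctrl-Sal replicate 2 the change of Sox2 was -0.01 and that of Nes -0.14. Here 2.5% of all rows were called and 31% did not overlap, against 0 of the 5 genes called and 0 of the 6 separated. The comparisons share groups, so their values are not independent of each other.

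In all, 0 of the 30 limma tests of the 5 genes passed the adjusted threshold and 0 had an unadjusted p under 0.05. With limma-voom, which could include Nes, 0 of 36 tests passed either. Over all rows limma-voom called 11.8% in CUMS-Sal, 0.344% in CUMS-Flx and 7.78% in CUMS-Alb against Ctrl-Sal, 0% for each drug against CUMS-Sal and 0.00638% between the drugs. Over the 30 tests the intervals ran from -0.44 to 0.65 on the log2(FPKM + 0.5) scale at their extremes, both of them bounds of Sox2, and the intervals of Prox1, Calb1 and Neurod1 were narrower.

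Ratios within a library, which do not depend on its scaling, did not overlap between groups about as often for these genes as for all rows. They were examined after the values had been seen, as a description with no test. Of 30 ratios of a gene to Prox1 across the 6 comparisons, 4 (13.3%) did not overlap between groups, against 11.8% for all rows over the same comparisons, which is near the background. Mki67 relative to Prox1 was 0.0270, 0.0198 and 0.0244 in CUMS-Flx, below the 0.0289, 0.0275 and 0.0305 of CUMS-Sal and the 0.0348, 0.0293 and 0.0288 of Ctrl-Sal. In CUMS-Alb it was 0.0278, 0.0280 and 0.0223, below Ctrl-Sal but not below CUMS-Sal. Neurod1 relative to Prox1 was 0.878, 0.891 and 0.827 in CUMS-Alb, below the 0.972, 0.918 and 0.956 of CUMS-Sal. Among the ratios of all other tested rows to Prox1, 11.5% did not overlap between CUMS-Flx and CUMS-Sal, 7.61% between CUMS-Flx and Ctrl-Sal, 17.1% between CUMS-Alb and Ctrl-Sal and 8.81% between CUMS-Alb and CUMS-Sal. In each of these comparisons 1 of the 5 ratios did not overlap. All 5 overlapped between CUMS-Sal and Ctrl-Sal and between CUMS-Alb and CUMS-Flx, where 18.6% and 7.17% of rows did not. The ratio of Mki67 carries the counting error of 87 to 122 reads.

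Ctrl-Sal replicate 2 held the lowest Sox2 and Nes and the highest Neurod1 and Calb1, but not an extreme of Prox1 or Mki67. Its Neurod1 was at 26.6 FPKM and its Calb1 at 61.5, while its Prox1, at 23.4, and Mki67, at 0.686, lay inside the range of the others. The ratio of Neurod1 to Sox2 was 2.16 in it and 0.946 to 1.34 in the other 11. What set this library apart was not tested.

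**Figure D4:**
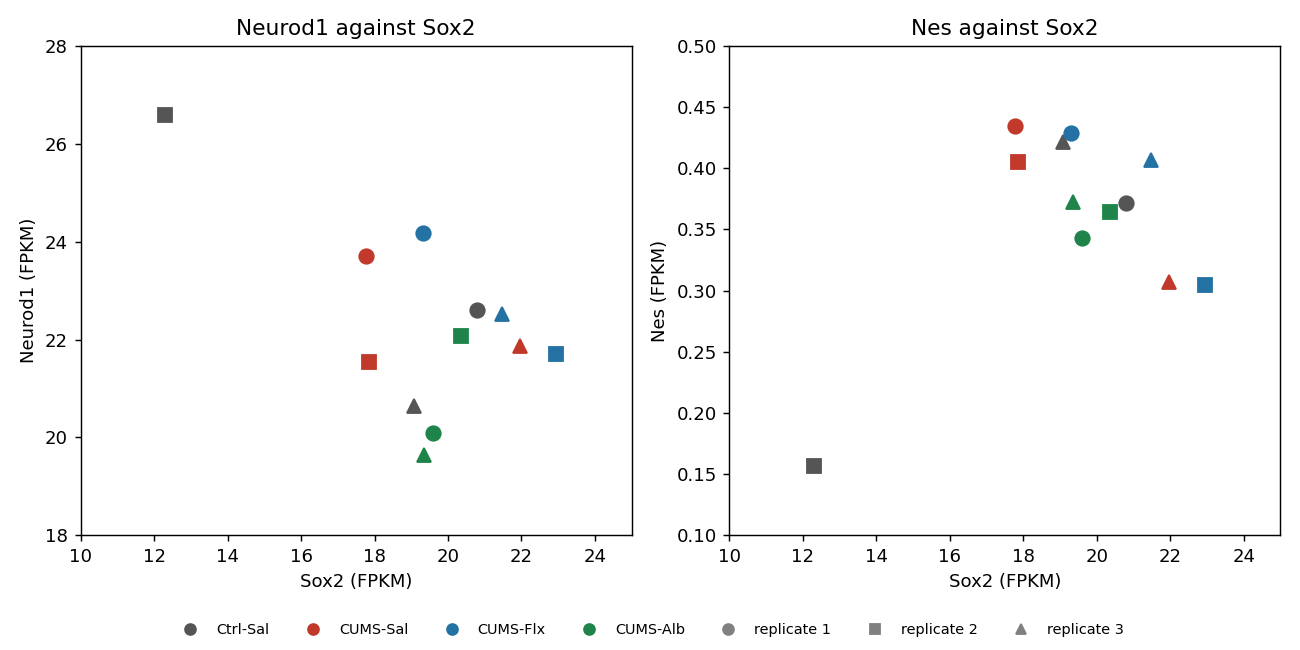
FPKM of Neurod1 (left) and Nes (right) against Sox2 in the 12 libraries, with colours for groups and shapes for replicates (axes do not start at 0). Ctrl-Sal replicate 2 (grey square) lies far to the left at 12.3 FPKM of Sox2. On the log2(FPKM + 0.5) scale the remaining 11 libraries have a Pearson r of -0.0160 for Neurod1 and -0.746 for Nes. In these 11 libraries the reads of Nes vary 0.477 times as much as counting alone, so its differences are no larger than counting error.

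Several relations between the genes across libraries, among them those of Sox2 with Neurod1 and with Nes, depended on that library. Over 15 pairs of genes and 12 libraries, on the log2(FPKM + 0.5) scale, the strongest was that of Neurod1 with Sox2, at a Pearson r of -0.601 (permutation p = 0.0494, adjusted p = 0.563 over the 15 pairs) and a Spearman rho of -0.231 (permutation p = 0.473, adjusted p = 0.942). The r was -0.107 without the 2 libraries farthest from the median of Neurod1, and -0.0160 without Ctrl-Sal replicate 2. Nes with Sox2 gave r = 0.559 (permutation p = 0.0843, adjusted p = 0.563) and rho = -0.364 (permutation p = 0.246, adjusted p = 0.923). Without the 2 libraries farthest from the median of Nes the r was -0.636, and without Ctrl-Sal replicate 2 it was -0.746. The sign of this relation thus depended on 1 library. Without that library the reads of Nes varied only 0.477 times as much as counting alone. The r of -0.746 therefore sets Sox2 against differences of Nes no larger than counting error, and it was not tested. Without Ctrl-Sal replicate 2 the r of Neurod1 with Nes went from -0.442 to 0.374. That of Calb1 with Sox2 went from -0.236 to 0.255 and that of Prox1 with Sox2 from 0.0271 to -0.0780. Calb1 with Neurod1 fell from 0.301 to 0.0430. Deviations from the group means gave -0.716 for Neurod1 with Sox2 and 0.494 for Nes with Sox2 with all 12 libraries. Prox1 had r between -0.0490 and 0.168 with the others over all 12 libraries. With Mki67 its r went from -0.0490 to 0.597 without the 2 libraries farthest from the median of Prox1, Ctrl-Sal replicate 1 and CUMS-Flx replicate 2. Neurod1 with Mki67 had r = 0.408 with all libraries and 0.425 without Ctrl-Sal replicate 2 (permutation p = 0.188 with all libraries, adjusted p = 0.563). None of the 15 pairs passed an adjusted p under 0.05.

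The number of other rows that followed each gene, given as a description, also depended on Ctrl-Sal replicate 2. Over all 12 libraries Sox2 correlated above 0.8 with 400 of the 15252 other tested rows and Nes with 77 of 15253, against 46 rows for Neurod1, 23 for Calb1, 16 for Mki67 and 7 for Prox1. Without that library the numbers were 6 for Sox2, 4 for Nes, 10 for Neurod1, 21 for Calb1, 26 for Mki67 and 17 for Prox1. Below -0.8 there were 172 rows for Neurod1 and 53 for Sox2 with all libraries, and 24 and 16 without it. The correlation with principal component 1 moved likewise, from 0.711 to -0.0768 for Sox2, from -0.688 to -0.293 for Neurod1 and from 0.627 to -0.316 for Nes. The rows could not be paired with symbols and are not named.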

How the data were processed

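RNA was extracted from snap-frozen rat hippocampus with TRIzol and made into Illumina libraries from 3 µg, per the labels' protocols. Per the submitters' processing notes, TopHat2 and build rn6 were used; which read counter, annotation release and strand setting were applied is not given here, so overlapping and near-identical genes could not be set apart. The authors deposited FPKM for 28959 rows, 27068 with Ensembl IDs; the unit was read from the values. Gene symbols came from the definition of the 6 genes. The reference used here paired 0 IDs with symbols, so the marker and pathway lists and the naming of genes of similar pattern were not used.

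Whole reads and lengths were recovered from the smallest whole length in bp at which all 12 values are whole reads, within 0.001 of a read. Such a length was found for 22737 of the 22737 rows above 0 (100%). Multiples of it would also give whole reads, so a length and its reads can be understated. Limma 3.58.1 in R 4.3.3 (trend, robust) was fitted to log2(FPKM + 0.5) for the 15253 rows averaging 0.5 FPKM or more, with 1 coefficient per group over all 12 libraries and Benjamini-Hochberg adjustment over all rows. Limma-voom was run on the rows averaging 10 reads or more. The scripts were tested on simulated data. Python 3.11.15 with scipy 1.17.1 was used for permutations (100000 resamples) and matplotlib 3.10.9 for figures. RefSeq windows (GRCr8) were matched by symbol for 4 of the 6 genes. The 6 genes, the tests and the lists were chosen with earlier results of these data known. The named genes were the 6 in every comparison. Alternatives were other scalings, filters, pseudocounts, a replicate block, fits of the compared groups alone and leaving out each library; limma-voom with a block, with centred libraries and without each library was added after seeing the data, as were the pattern counts without Ctrl-Sal replicate 2.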

Additional observations from a re-analysis of the deposited data

How the results depend on the processing

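None of the 6 genes was called in any of the 6 comparisons under the alternatives in which it could be tested, of 36 run, 22 planned and 14 added after seeing the data. Prox1, Calb1, Neurod1 and Sox2 were tested in all of them, Mki67 in 35 and Nes in 15. Of 1164 values, 0 were called, the lowest adjusted p was 0.0666 (Neurod1 in CUMS-Alb against Ctrl-Sal, limma-voom without Ctrl-Sal replicate 3), and 57 had the opposite sign to the main value, the cause of which was not tested. Without Ctrl-Sal replicate 2 the sign turned for Sox2 in CUMS-Sal and CUMS-Alb against Ctrl-Sal (-0.06 and -0.01), for Neurod1 in CUMS-Sal and CUMS-Flx against Ctrl-Sal (0.05 and 0.07), for Calb1 in CUMS-Flx against Ctrl-Sal (0.04), and for Nes in each stressed group against Ctrl-Sal (-0.07 for CUMS-Sal, -0.07 for CUMS-Flx and -0.14 for CUMS-Alb, limma-voom). Depth limits Nes, at 13 to 39 reads per library, and Mki67.

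The counts over all genes, which serve as background, moved more, and the cause was not tested. For CUMS-Sal against Ctrl-Sal the 1402 calls became 740 without trend and robust settings, 529 with quantile normalization, 743 with library deviations centred at 0, 251 without a filter, and 0 with only the compared groups (4572 rows had an unadjusted p under 0.05 in the main test). CUMS-Alb against Ctrl-Sal, 381 calls, gave under the same settings 0, 98, 28, 3 and 1, and 996 at a minimum of 5 FPKM and 1220 with limma-voom. CUMS-Flx against Ctrl-Sal, 8 calls, gave 1 without trend, 24 with quantile normalization, 3 without a filter, 0 with only the compared groups and 54 with limma-voom. CUMS-Flx against CUMS-Sal, 0 calls, gave 1 with quantile normalization, centred libraries and a pseudocount of 0.1 each, and 5 with only the compared groups. CUMS-Alb against CUMS-Sal, 0 calls, gave 1 with a pseudocount of 0.1 and 4 with only the compared groups. CUMS-Alb against CUMS-Flx, 1 call, gave 0 at a minimum of 5 FPKM and 2 with only the compared groups. Leaving out single libraries gave 1 to 2637 calls for CUMS-Sal and 1 to 544 for CUMS-Flx and 0 to 2356 for CUMS-Alb against Ctrl-Sal, 0 to 2 for CUMS-Flx and 0 to 1 for CUMS-Alb against CUMS-Sal, and 0 to 3 for CUMS-Alb against CUMS-Flx. The lowest count for stress was without CUMS-Sal replicate 2 and the highest without Ctrl-Sal replicate 3.

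Whether same-numbered libraries share more than a number is not stated. Of 18 such pairs 1 had deviations correlated above 0.1 (range -0.159 to 0.127), and 1 of 12 libraries correlated best with its own number. With the replicate block, calls were 565 for CUMS-Sal, 0 for CUMS-Flx and 0 for CUMS-Alb against Ctrl-Sal, and 0 of the 5 genes tested in it were called in any comparison.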
